A study of Mus musculus with 10 samples.

Results

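The genes described here are 10 members of the Krüppel-like factor family, *Klf2*, *Klf3*, *Klf4*, *Klf6*, *Klf9*, *Klf10*, *Klf11*, *Klf13*, *Klf15* and *Klf16*, in the livers of germ-free mice given gut microbiota-derived extracellular vesicles. They were chosen by name, with earlier results of these data known, and each was located through its Ensembl identifier. All 10 were found among the 12148 genes of the count table, and all 10 were among the 12147 genes tested.

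The mice were germ-free, genotypically wild-type C57BL6 animals in both groups, and whole liver was collected from each. GF+MEV mice received microbiota-derived extracellular vesicles (MEV) by mouth, isolated from cecal content and stool of conventional control mice, at 80 μg in PBS, 2 doses per week for 3 weeks. GF+PBS mice received PBS alone. Each group held 5 livers, 1 library per mouse, and the age and sex of the germ-free mice and the hour at which livers were taken were not given in the sources used here. The comparison asks how vesicles from a microbiota, given to an animal that has none of its own, alter gene expression in the liver.

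Library totals lay between 15746119 and 20523649 assigned counts for GF+MEV livers, and between 16140770 and 19733387 for GF+PBS livers. Hepatocyte markers made up most of the cell type signal, summing to between 112293 and 130054 CPM (read counts scaled to the effective library size, here after TMM normalization) in every liver, so the libraries carried the markers of the labelled tissue. Some GF+PBS libraries lay closer together than others. Over the 500 most variable genes, livers 1 and 3 differed by 0.579 (root mean square of log2 CPM) and livers 4 and 5 by 0.467, where the other GF+PBS pairs differed by 0.758 to 0.982 and GF+MEV pairs by 0.727 to 1.03. No pair agreed within sampling noise, so each liver was counted separately. Each of the 10 Klf genes kept its call when both of these pairs were summed, and also without GF+MEV liver 2, whose normalization factor of 0.890 lay apart from the other livers.

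Krüppel-like factors are transcription factors that bind GC-rich and CACCC-type sequences through zinc fingers near their carboxyl terminus, and they differ mainly in the cofactors that the rest of the protein recruits. KLF3 recruits the corepressor CtBP. KLF2, KLF4 and KLF6 act largely as activators, and KLF2 and KLF4 are known for their role in vascular endothelium. KLF9, KLF10, KLF11, KLF13 and KLF16 share a short motif that binds the corepressor Sin3A, and KLF10 and KLF11 were first described as genes induced by TGF-β. KLF15 is known in liver for its part in amino acid catabolism and gluconeogenesis, and *Klf9*, *Klf10* and *Klf15* are known to respond to hormones, to feeding or to the circadian clock.

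In GF+MEV livers 7 of the 10 genes rose (*Klf2*, *Klf3*, *Klf4*, *Klf9*, *Klf11*, *Klf13* and *Klf15*), none fell, and 3 did not pass the test (*Klf6*, *Klf10* and *Klf16*). A gene was called when its Benjamini-Hochberg adjusted p in edgeR's quasi-likelihood test was below 0.05 over all tested genes. DESeq2 and limma-voom called the same counts, 7 higher and 0 lower, and none of the 10 was lower at an unadjusted p below 0.05 in any of these tools. The adjusted threshold was passed by 7.64% of all tested genes, 4.12% of them higher and 3.52% lower in GF+MEV. The median log2 fold change of the 10 genes was 0.68, and that of all tested genes was -0.0037. In 6 of the 7 called genes, all but *Klf11*, the 5 GF+MEV livers lay entirely above the 5 GF+PBS livers, a separation upward that 3.94% of all tested genes showed (3.45% were separated downward, none of the 10 among them). These are bulk libraries, in which fewer cells of a type and less RNA per cell cannot be told apart.

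**Figure D1:**
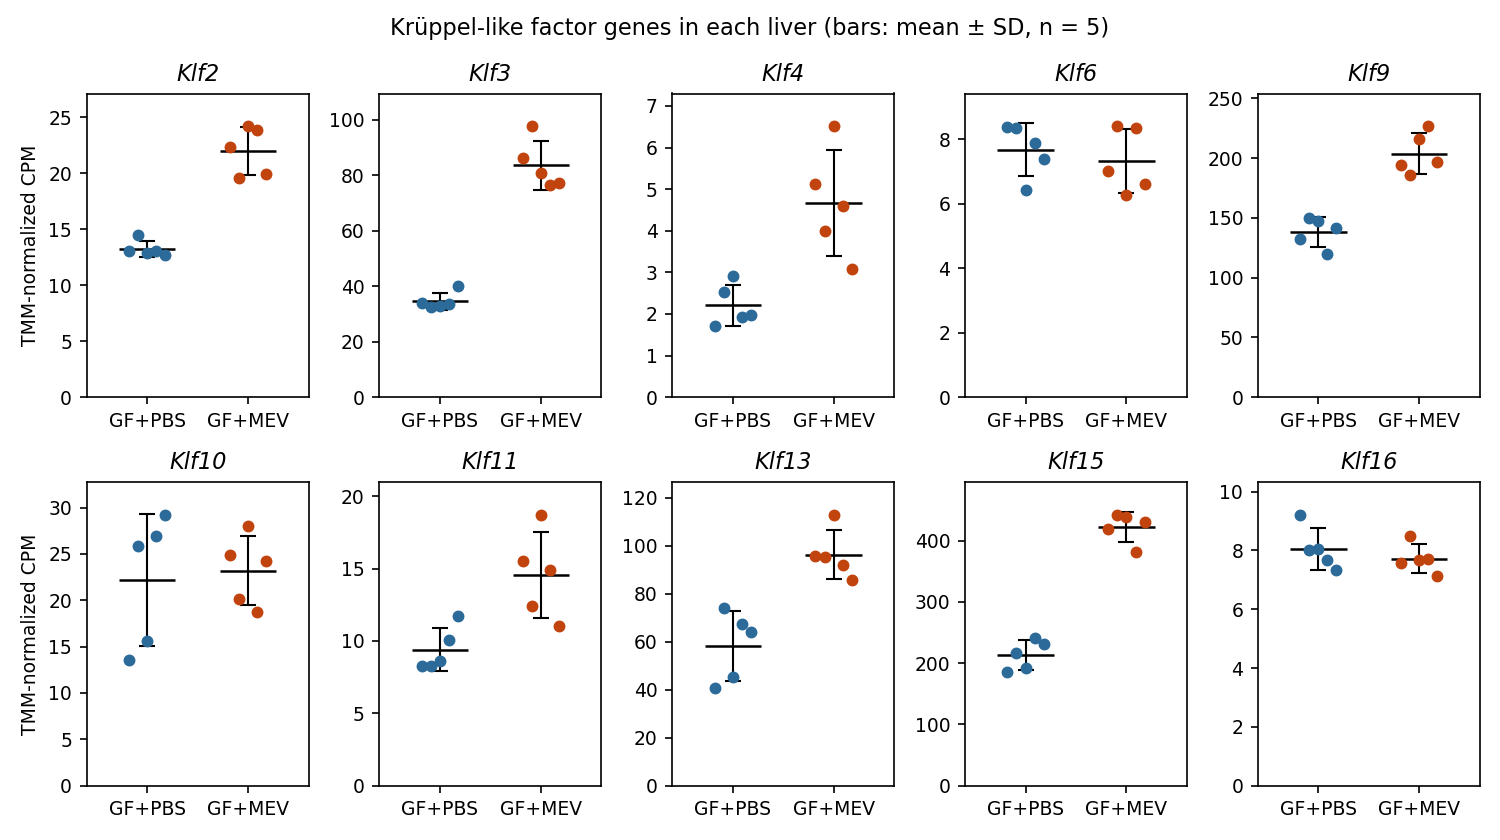
Level of each of the 10 Klf genes in TMM-normalized CPM (vertical axes, linear from 0, 1 panel per gene) in 5 GF+PBS and 5 GF+MEV livers. Points are livers, replicates 1 to 5 from left to right within a group, and horizontal bars with error bars are group means ± SD. The groups do not overlap for *Klf2*, *Klf3*, *Klf4*, *Klf9*, *Klf13* and *Klf15*, while those of *Klf6*, *Klf10*, *Klf11* and *Klf16* do.

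The promoters of the 4 called members with the highest CPM are shown first, since the zinc fingers of this family read GC-rich DNA and several family members are known to act on each other's promoters. RefSeq windows were matched for 8 of the 10 genes, *Klf2*, *Klf3*, *Klf4*, *Klf6*, *Klf9*, *Klf11*, *Klf13* and *Klf15*. Each window covered 300 bases of GRCm38.p6, from 250 before the annotated start to 50 after it. Of these, the first 275 bases are printed for 4 genes, 5′ to 3′ on the strand of the gene. Capitals mark every match on either strand to GGGCGG (the GC box), CCACACCC (a CACCC box), CACGTG (the E-box that clock proteins of the CLOCK and BMAL1 kind bind) or TGACG (a cAMP response half-site). A match on the opposite strand appears as its reverse complement, for example CCGCCC or CGTCA.
Klf3, chr5:64803271-64803545, plus strand: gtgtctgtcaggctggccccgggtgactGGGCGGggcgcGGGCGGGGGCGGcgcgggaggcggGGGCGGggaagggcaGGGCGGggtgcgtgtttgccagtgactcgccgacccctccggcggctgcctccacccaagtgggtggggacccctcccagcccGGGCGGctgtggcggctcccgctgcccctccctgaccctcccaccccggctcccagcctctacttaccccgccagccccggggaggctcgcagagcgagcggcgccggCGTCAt
Klf9, chr19:23140976-23141250, plus strand: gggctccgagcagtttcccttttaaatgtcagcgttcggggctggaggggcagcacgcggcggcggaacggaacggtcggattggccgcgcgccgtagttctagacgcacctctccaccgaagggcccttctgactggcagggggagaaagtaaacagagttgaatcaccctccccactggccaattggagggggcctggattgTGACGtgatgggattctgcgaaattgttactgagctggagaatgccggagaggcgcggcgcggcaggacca
Klf13, chr7:63938891-63939165, minus strand: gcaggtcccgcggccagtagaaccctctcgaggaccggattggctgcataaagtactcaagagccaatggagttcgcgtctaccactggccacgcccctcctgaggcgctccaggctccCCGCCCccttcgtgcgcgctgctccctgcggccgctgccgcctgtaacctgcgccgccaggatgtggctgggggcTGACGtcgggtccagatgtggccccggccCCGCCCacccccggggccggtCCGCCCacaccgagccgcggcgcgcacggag
Klf15, chr6:90462326-90462600, plus strand: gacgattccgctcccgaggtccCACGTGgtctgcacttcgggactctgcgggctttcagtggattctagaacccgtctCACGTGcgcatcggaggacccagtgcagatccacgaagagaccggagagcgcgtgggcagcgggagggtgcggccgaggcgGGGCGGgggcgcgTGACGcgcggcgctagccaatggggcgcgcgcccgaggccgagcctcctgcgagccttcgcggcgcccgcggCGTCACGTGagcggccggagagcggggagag

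All 8 windows were rich in G and C, at 63.0% to 77.7%, where the median of 32851 mouse windows was 52.7%. GGGCGG occurred in 7 of the 8, *Klf9* being the exception, and in 35.7% of all windows. *Klf3* held 6 such matches, at positions -222, -211, -205, -187, -172 and -89 from the start. The E-box CACGTG occurred in 4 of the 8 (*Klf4*, *Klf6*, *Klf11* and *Klf15*) and in 7.15% of all windows. *Klf15* held 3 of them, at -228, -172 and -3, and the last of these overlaps in part with the opposite-strand CGTCA at -6. TGACG occurred in 6 of the 8 and in 20.8% of all windows. CCACACCC (3.56% of all windows), TATAAA (13.6%) and AGAACA, a glucocorticoid half-site (19% of all windows), had no match in these 8 windows. Windows rich in G and C hold more GC-rich matches of any kind, and a match is a description of letters only.

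Levels per kilobase of exon differed widely within the family. *Klf15* was the most abundant in both groups, at a mean of 76.5 CPM per kilobase in GF+PBS and 151 in GF+MEV, and stood at percentile 96.4 of all genes by its mean over all livers. *Klf9* followed at 28.7 and 42.3 CPM per kilobase, at percentile 90.3. Both lay above the next gene in the order in every liver. The other 8 genes lay between 0.726 (*Klf4*) and 7.75 (*Klf13*) in GF+PBS. *Klf13* at 7.75 and *Klf2* at 7.16 overlapped in GF+PBS, as did *Klf2* with *Klf10* (5.32), *Klf10* with *Klf3* (3.07), *Klf3* with *Klf16* (3.01), and *Klf11* (2.16) with *Klf6* (1.75). In GF+MEV the neighbours that overlapped were *Klf13* (12.8) with *Klf2* (11.9), *Klf11* (3.35) with *Klf16* (2.88), and *Klf6* (1.67) with *Klf4* (1.53). *Klf3* moved from rank 6 in GF+PBS to rank 5 in GF+MEV, above *Klf10* in all 5 GF+MEV livers.

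**Figure D2:**
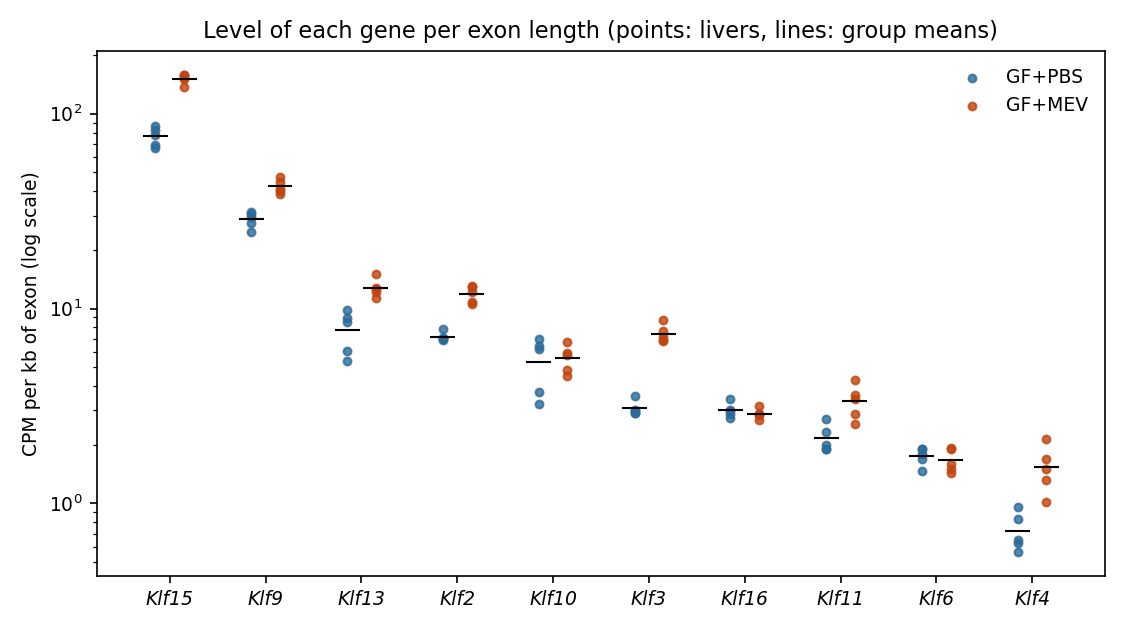
Level of the 10 genes per kilobase of exon (CPM per kilobase, log axis) in GF+PBS and GF+MEV livers, ordered by the GF+PBS mean, with each liver as a point and group means as lines. *Klf15* and *Klf9* lie above the other 8 genes in both groups, and *Klf4* is the least abundant in GF+PBS at a mean of 0.726.

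*Klf3*, the CtBP-recruiting repressor, showed the largest fold change of the 10. The gene (ENSMUSG00000029178) lies at chr5:64803388-64832901 in GRCm38. Its level was 33.8, 32.6, 32.7, 33.5 and 40.1 CPM in GF+PBS livers 1 to 5 and 86.1, 97.7, 80.6, 76.3 and 77.2 CPM in GF+MEV livers 1 to 5. The lowest GF+MEV liver was thus well above the highest GF+PBS liver, liver 5, which itself stood apart from the other 4. The means were 34.5 ± 3.13 and 83.6 ± 8.78 CPM (SD, n = 5 each), a 2.42-fold difference in means. The log2 fold change was 1.28 (SE 0.086, edgeR adjusted p 1.66e-07), and by its p *Klf3* ranked 17 of all tested genes. Over 404 bases its exons overlap those of *Gm20033* on the other strand, and the strand setting of the counting was not given in the sources used here, so reads of these genes cannot be told apart there.

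*Klf2* and *Klf4*, the endothelial activators, both rose. *Klf2* (ENSMUSG00000055148, chr8:72319033-72321656), a gene that responds to blood flow, was at 13.05, 14.5, 12.9, 13.1 and 12.7 CPM in GF+PBS and at 22.3, 19.6, 24.2, 23.9 and 19.98 CPM in GF+MEV. The GF+PBS livers lay within a narrow band below every GF+MEV liver. Means were 13.2 ± 0.71 and 22.01 ± 2.16 CPM, and the log2 fold change was 0.74 (SE 0.072, edgeR adjusted p 4.4e-05). *Klf4* (ENSMUSG00000003032, chr4:55527143-55532466), best known as a factor used to reprogram cells to pluripotency, was at 1.72, 2.52, 2.92, 1.92 and 1.98 CPM in GF+PBS and at 5.12, 4.0, 6.52, 4.60 and 3.08 CPM in GF+MEV. The groups did not overlap, but GF+MEV liver 5 at 3.08 CPM came close to GF+PBS liver 3 at 2.92 CPM. Raw counts of *Klf4* were only 31 to 135 per library, the fewest of the 10 genes. Its log2 fold change was 1.09 (SE 0.22, edgeR adjusted p 0.0044).

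Whole liver mixes cell types, so *Klf2* and *Klf4* were also set against 17 endothelial markers measured in the same livers. The markers summed to 380 to 479 CPM in GF+PBS and to 313 to 506 CPM in GF+MEV, ranges that overlapped, and their median log2 fold change was -0.12. Only *Lyve1* (log2 fold change 0.84) was called higher and only *Clec4g* (-0.48) lower, both genes of liver sinusoidal endothelium. Relative to the mean log2 level of these markers, *Klf2* stood at -0.41 ± 0.21 in GF+PBS and at 0.42 ± 0.21 in GF+MEV (log2 ratio, SD, n = 5 each). The difference of 0.83 (SE 0.13) had an exact two-sided permutation p of 0.00794, the smallest that 5 against 5 livers allow, and 0.00794 after adjustment over the 2 genes. *Klf4* stood at -2.95 ± 0.29 and -1.82 ± 0.38, a difference of 1.13 (SE 0.22) with the same exact permutation p and adjusted p. For both genes the ratio was higher in every GF+MEV liver than in any GF+PBS liver. Both were already separated in this way without the markers, with the same exact permutation p. The mean log2 level of the markers differed by only -0.11 between the groups. The ratio is thus close to a repeat of the first comparison and no independent support for it. Both are also expressed outside endothelium, and the cell type that carried the difference was not measured.

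*Klf6* (ENSMUSG00000000078, chr13:5861482-5870394), the third activator of the set and a gene known from hepatic stellate cells, did not pass the test. Its level was 8.38, 8.35, 6.43, 7.88 and 7.39 CPM in GF+PBS and 7.01, 8.42, 6.28, 8.37 and 6.62 CPM in GF+MEV, covering one and the same range. The log2 difference was -0.071 (SE 0.11, edgeR adjusted p 0.787), with a limma-voom 95% interval from -0.33 to 0.17. The 10 stellate cell markers had no called gene (1 lower at an unadjusted p below 0.05 in edgeR) and summed to 338 to 364 CPM in GF+PBS and 294 to 404 CPM in GF+MEV.

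Of the 5 Sin3A-binding members, *Klf9*, *Klf11* and *Klf13* rose while *Klf10* and *Klf16* did not pass the test. *Klf9* (ENSMUSG00000033863, chr19:23141226-23168134), a known target of thyroid and glucocorticoid hormones, was at 132, 150, 147, 120 and 141 CPM in GF+PBS and at 194, 186, 216, 227 and 197 CPM in GF+MEV. No GF+PBS liver reached the lowest GF+MEV liver. Means were 138 ± 12.4 and 204 ± 16.9 CPM, and the log2 fold change was 0.56 (SE 0.080, edgeR adjusted p 0.00022), the smallest of the 7 called genes.

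*Klf13* (ENSMUSG00000052040, chr7:63886351-63938915), the close relative of *Klf9*, was at 40.6, 74.2, 45.5, 67.5 and 64.2 CPM in GF+PBS and at 95.6, 95.2, 113, 92.1 and 85.5 CPM in GF+MEV. GF+PBS livers 1 and 3 were low and the other 3 were closer to the GF+MEV range, yet none entered it. Its means were 58.4 ± 14.6 and 96.3 ± 10.2 CPM, and the log2 fold change was 0.72 (SE 0.18, edgeR adjusted p 0.0056). With the alike GF+PBS livers summed, 1 with 3 and 4 with 5, it was 0.67 with an edgeR adjusted p of 0.024.

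*Klf10* (ENSMUSG00000037465, chr15:38291463-38300706), a TGF-β-inducible gene that is also rhythmic in liver, showed the widest spread among GF+PBS livers. It was at 13.5, 25.8, 15.6, 26.9 and 29.2 CPM in GF+PBS, a coefficient of variation of 32.1%, and at 24.8, 20.1, 28, 18.8 and 24.2 CPM in GF+MEV, 16.1%. GF+PBS livers 1 and 3 were again the lowest, here below every GF+MEV liver, and GF+PBS liver 5 was the highest of all 10. The log2 difference was 0.063 (SE 0.25, edgeR adjusted p 0.898) with a limma-voom 95% interval from -0.30 to 0.54, and its sign turned when counts were scaled by library size alone (-0.0081) or when GF+PBS liver 1 (-0.071), GF+PBS liver 3 (-0.039) or GF+MEV liver 3 (-0.016) was left out.

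*Klf11* (ENSMUSG00000020653, chr12:24651274-24662789), the other TGF-β-inducible member, rose but with overlap. It was at 8.27, 8.29, 8.63, 10.1 and 11.7 CPM in GF+PBS and at 15.6, 12.4, 18.7, 14.9 and 11.1 CPM in GF+MEV, so that GF+MEV liver 5 lay below GF+PBS liver 5. The means were 9.39 ± 1.49 and 14.5 ± 2.97 CPM. The log2 fold change was 0.64 (SE 0.16, edgeR adjusted p 0.013), and the exact two-sided permutation p was 0.0159. *Klf16* (ENSMUSG00000035397, chr10:80567124-80577321), a Sin3A-binding repressor, stayed between 7.33 and 9.22 CPM in GF+PBS and between 7.13 and 8.49 CPM in GF+MEV. Its log2 difference was -0.064 (SE 0.068, edgeR adjusted p 0.759) with a limma-voom 95% interval from -0.27 to 0.14.

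*Klf15* (ENSMUSG00000030087, chr6:90462576-90475238) was the most abundant member and had, after *Klf3*, the smallest p. It was at 186, 217, 192, 242 and 231 CPM in GF+PBS and at 419, 443, 439, 381 and 430 CPM in GF+MEV. Every GF+MEV liver was far above every GF+PBS liver, and the spread within each group was small beside the gap. Means were 214 ± 24.0 and 422 ± 24.7 CPM, a 1.98-fold difference. The log2 fold change was 0.98 (SE 0.083, edgeR adjusted p 1.1e-06), rank 35 by p among all tested genes. For *Klf2*, *Klf3*, *Klf4*, *Klf9*, *Klf13* and *Klf15* alike, the exact two-sided permutation p was 0.00794, the smallest this design allows. Differences between members in the size of the change were not tested.

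The family has further members and the closely related Sp factors. Of 17 further Klf and Sp genes, 8 were in the tested table, 0 were called higher in edgeR and 1 was called lower, as in DESeq2 and limma-voom. At an unadjusted p below 0.05 edgeR gave 0 higher and 2 lower. That gene was *Sp5*, a target of Wnt signalling, at 5.31 ± 0.474 CPM in GF+PBS and 3.03 ± 0.915 CPM in GF+MEV without overlap (log2 fold change -0.81, SE 0.21, edgeR adjusted p 0.013). *Klf12*, a CtBP-binding repressor like KLF3, was at 16.4 ± 5.61 and 21.9 ± 4.0 CPM (log2 difference 0.42, edgeR adjusted p 0.237). *Klf1*, the erythroid factor, had a log2 difference of -0.41 (edgeR adjusted p 0.174), beside 5 erythroid markers with no called gene that summed to 276 to 470 CPM in GF+PBS and 250 to 390 CPM in GF+MEV. *Klf7* (-0.13), *Sp1* (0.092), *Sp2* (0.15), *Sp3* (0.0018) and *Sp4* (-0.20) had edgeR adjusted p between 0.487 and 0.995, and the sign of *Sp3* changed with the scaling. The exons of *Klf7* overlap those of *Gm26649* on the other strand over 3196 bases.

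**Figure D3:**
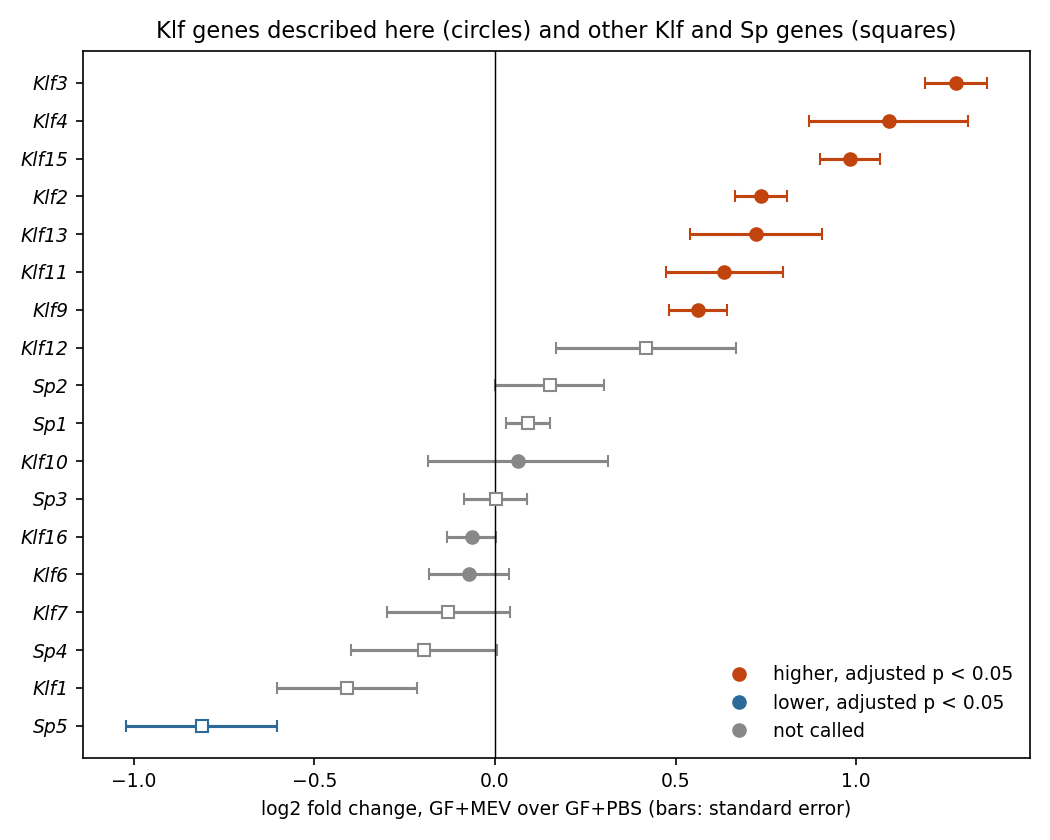
Log2 fold change (GF+MEV over GF+PBS, horizontal axis, error bars ± SE over 5 livers per group) of the 10 Klf genes described here (circles) and of 8 further Klf and Sp genes in the tested table (squares), in orange (higher) or blue (lower) where the edgeR adjusted p was below 0.05 and grey otherwise. Of the 10 circles 7 are orange and lie to the right of 0, and the only coloured square is *Sp5*, in blue at -0.81.

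The partners of these factors were followed as a list. Among 18 cofactors and upstream regulators, 2 were called higher and 0 lower by edgeR, DESeq2 and limma-voom (4 and 2 at an unadjusted p below 0.05), which is 11.1% beside 7.64% of all tested genes, with a median log2 fold change of -0.0080. *Crebbp*, the acetyltransferase CBP, went from 19.1 ± 2.80 to 25.4 ± 1.94 CPM (log2 fold change 0.41, edgeR adjusted p 0.021). *Mef2a*, a factor that acts upstream of *Klf2* in endothelium, went from 21.4 ± 1.54 to 26.7 ± 2.98 CPM (0.32, edgeR adjusted p 0.029). The related regulators *Mef2c* (-0.50), *Mapk7* (-0.20), *Map2k5* (-0.038) and *Mef2d* (0.27) were not called. The transcripts of the corepressors themselves, *Ctbp1*, *Ctbp2*, *Sin3a*, *Sin3b*, *Hdac1*, *Hdac2* and *Hdac3*, were not called, with log2 differences from -0.17 for *Hdac1* to 0.46 for *Ctbp2*, and were picked out after their values were seen. *Ctbp1* was at 64.0 ± 1.85 CPM in GF+PBS and 59.6 ± 1.70 CPM in GF+MEV (-0.10, edgeR adjusted p 0.262). Its GF+MEV livers lay entirely below its GF+PBS livers, a separation that 3.45% of all tested genes showed. The count of called partners was 0 without GF+PBS liver 3 or with counts scaled by library size alone, and 1 without GF+PBS liver 1 or 4 or GF+MEV liver 4 or 5 or with the alike livers summed.

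Lists of genes of the processes with which KLF15 is known to be involved held many called genes. These lists were chosen with earlier results of these data known. Of 20 amino acid catabolism genes 10 were called higher and 0 lower (50%, median log2 fold change 0.29), and of 11 gluconeogenesis genes 6 were called higher and 0 lower (54.5%, median 0.49), against 7.64% of all tested genes called. DESeq2 and limma-voom gave the same counts, and at an unadjusted p below 0.05 edgeR gave 1 amino acid gene and 0 gluconeogenesis genes lower. Over 19 alternatives in processing, amino acid genes called higher numbered 7 to 10, with 7 under library size alone. The gluconeogenesis genes called higher stayed at 6. *Tat*, tyrosine aminotransferase, had a log2 fold change of 2.10, *Sds*, serine dehydratase, 1.58, *Got1*, the cytosolic aspartate aminotransferase, 1.27, and *Asl*, a urea cycle enzyme, 0.75. In the gluconeogenesis list the largest were *G6pc* at 2.28, the kinase *Sik1* at 1.91, *Pck1* at 1.71 and the coactivator *Ppargc1a* at 1.21. The paper had already reported *G6pc*, *Pck1*, *Ppargc1a* and *Foxo1*, here also called (log2 fold change 0.79), as upregulated in these same livers. The share called in this list is thus not an independent result. The other 10 amino acid genes and 5 gluconeogenesis genes did not pass the test. Among the former were *Gpt* (log2 difference 0.069), *Prodh* (0.044), *Otc* (-0.016) and *Bcat2* (-0.23). Among the latter were *Pck2* (0.0070), *Fbp1* (0.00079) and *Pcx* (0.086). Whether KLF15 acted on any of these genes was not tested.

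Genes associated with KLF2 in endothelium did not share a direction. Of 6 tested genes of that list 2 were called higher and 1 lower (50%, median log2 fold change 0.11). *Vcam1*, a leukocyte adhesion molecule that KLF2 is known to repress, rose from 4.94 ± 0.571 to 10.04 ± 1.48 CPM (log2 fold change 1.02, edgeR adjusted p 8.8e-05). *Thbd*, thrombomodulin, which KLF2 is known to induce, rose from 4.2 ± 0.889 to 6.88 ± 1.54 CPM (0.72, edgeR adjusted p 0.018). *S1pr1*, a receptor that KLF2 is known to induce in lymphocytes, fell from 44.6 ± 8.21 to 28.4 ± 3.26 CPM (-0.65, edgeR adjusted p 0.0034). Only 1 of these genes was called higher without GF+MEV liver 3 or GF+PBS liver 4, or with the alike livers summed. Leukocyte markers moved beside these genes. Of 7 tested, 3 were called lower (*Cd79a*, *Cd79b* and *Cd74*) and none higher, and their sum was 155 to 210 CPM in GF+PBS and 103 to 167 CPM in GF+MEV. Their part in these values was not tested.

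Around *Klf10* and *Klf11*, the TGF-β and BMP response list held 2 genes called higher and 3 lower of 15 tested (33.3%, median log2 fold change -0.26). *Ccn2*, a matricellular protein, rose by 1.6 and *Skil*, a SMAD corepressor, by 0.77 on the log2 scale. *Id3* fell by 1.87 and *Id2* fell by 1.37.

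Hormone- and clock-related lists were taken because *Klf9*, *Klf10* and *Klf15* are known from both. They were chosen with earlier results of these data known, so the shares called are not independent results. Glucocorticoid action itself was not tested. Of 17 tested glucocorticoid-induced genes 15 were called higher and 0 lower (88.2%, median log2 fold change 2.08), also by DESeq2 and limma-voom and with 0 lower at an unadjusted p below 0.05, among them *Ddit4* at 3.98, *Igfbp1* at 3.72, *Zbtb16* at 3.30 and *Lpin1* at 3.0. *Tat* belongs to this list and the amino acid list, and *Per1* to this list and the clock list. The 7 called Klf genes, between 0.56 and 1.28, lay under the median of this list. Of 19 clock genes 3 were called higher and 2 lower (26.3%, median log2 fold change 0.030). Those with the largest log2 fold changes were *Ciart* (2.0), *Per1* (1.69), *Bhlhe40* (0.52) and *Nr1d1* (-0.48). The lower count was 1 when any of GF+MEV livers 1 to 4 or GF+PBS livers 2 to 5 was left out, with the alike livers summed, and with the replicate number as a block.

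Apart from treatment, the members varied between livers of the same group, and some did so together. Pearson r was taken over the 10 livers after the group mean of log2 CPM had been removed, as a description without a p, since the livers share one normalization and the genes compared were found by search. *Klf10* went with *Klf13* (r = 0.883) and with *Klf15* (0.875), and against *Klf16* (-0.736). Without GF+PBS livers 1 and 3, the livers farthest from the median of *Klf10*, and with group means taken again, these were 0.345, 0.523 and -0.510, so they rest in good part on these livers. *Klf2* went with *Klf4* (0.656) and with *Klf9* (0.620).

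The same 3 genes followed *Per3*, a repressor of the circadian clock that was itself not called (edgeR adjusted p 0.404). *Per3* was at 19.5, 68.1, 23.1, 57.7 and 64.6 CPM in GF+PBS livers 1 to 5 and at 31.2, 36.9, 43.4, 26.5 and 31.0 CPM in GF+MEV livers. Within groups its r was 0.960 with *Klf13*, 0.930 with *Klf10* and 0.880 with *Klf15* (Spearman's rho 0.939, 0.891 and 0.830). The GF+PBS livers fell apart in *Per3*, with livers 1 and 3, which are also an alike pair, far under the other 3. Without them and with group means taken again, r was 0.732, 0.562 and 0.514 over 8 livers, so the size of the relation rests in good part on these 2 livers. It was -0.052 with *Klf9* and 0.173 with *Klf2*. *Arntl*, which encodes the activator BMAL1 and was picked after its values were seen, went the other way, with r of -0.86, -0.88 and -0.82 for *Klf13*, *Klf10* and *Klf15*, and of -0.52, -0.61 and -0.44 without the same livers. GF+PBS livers 1 and 3 were thus low in *Per3*, *Klf10*, *Klf13* and *Klf15* together. The pattern was not particular to *Per3*. For *Klf10*, *Klf13* and *Klf15*, r was 0.901, 0.914 and 0.863 with *Per1*, and 0.919, 0.907 and 0.902 with *Tef*. Without GF+PBS livers 1 and 3, r was 0.397, 0.438 and 0.562 with *Per1*, and 0.646, 0.573 and 0.655 with *Tef*. With *Dbp* it was 0.809, 0.789 and 0.932, and 0.756, 0.885 and 0.904 without GF+MEV liver 4 and GF+PBS liver 3. With *Npas2* it was -0.0020, -0.0031 and -0.035. These further clock genes were picked after their values were seen.

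**Figure D4:**
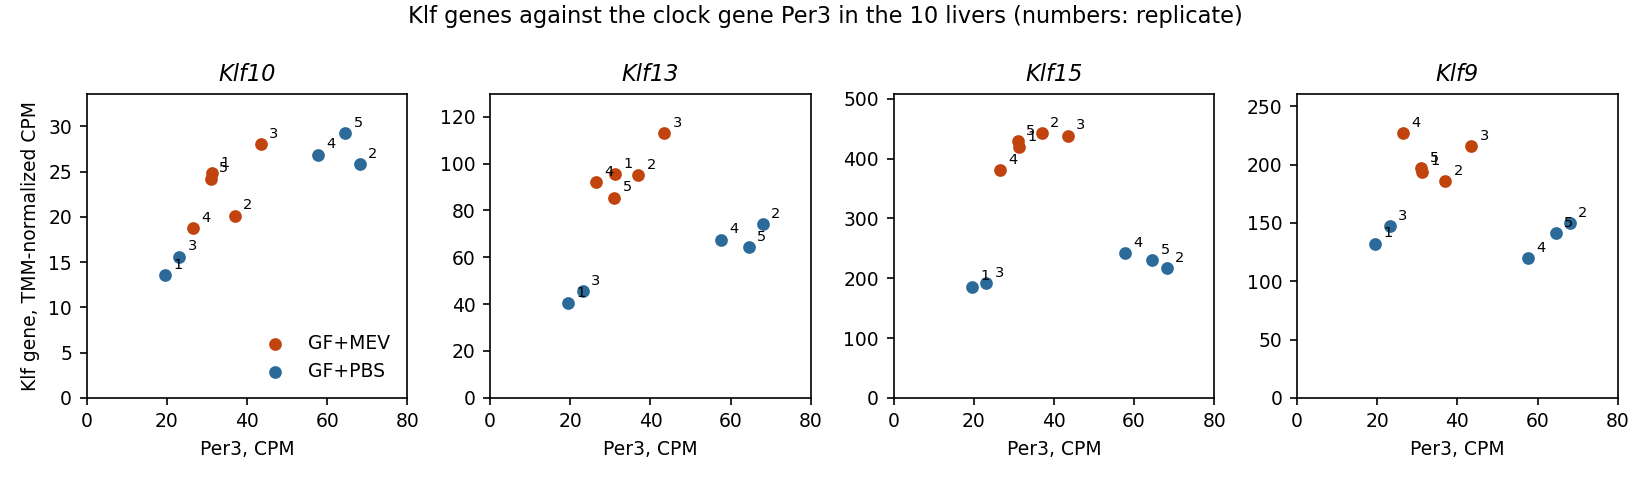
*Klf10*, *Klf13*, *Klf15* and *Klf9* (vertical axes, CPM) against *Per3* (horizontal axes, CPM), 1 panel per gene, with each liver marked by its replicate number and coloured by group. Among GF+PBS livers 1 and 3 lie low on both axes for *Klf10*, *Klf13* and *Klf15*, while *Klf9* shows no such pattern (within-group r = -0.052).

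The set of transcripts whose within-group pattern was most like each called member was sought among 11824 genes that averaged 1 CPM or more. For *Klf15* it held *Asl* (r = 0.975), which was called higher, and *Epas1* (0.971), the hypoxia-inducible factor HIF-2α. For *Klf13* they were the urate transporter gene *Slc2a9* (0.987), *Per3* (0.960) and *Lrrfip1* (0.953). For *Klf9* they were *Zbtb4* (0.955), *Plekhf2* (0.946) and *Pdzd8* (0.940), and for *Klf11* *Cdc25b* (0.966), *Gm15998* (0.949) and *Tmem131l* (0.948). *Klf2* was most like *Arhgap9* (0.946), *Slc35e1* (0.945) and *Nupl2* (0.944), and *Klf4* most like *Pacsin2* (0.947), *Adamtsl4* (0.935) and *Myrf* (0.925). For *Klf3* they were *Hmgb2* (0.976), *Gm44421* (0.952) and *Ggnbp2* (0.906). The last of these dropped to 0.391 without the 2 livers farthest from the median of *Klf3*, so it rests on them. These come from the top 3 of a search over all these genes, and they carry no p.

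Other cell types were followed by their markers. Kupffer cell markers had no called gene of 10 in edgeR, DESeq2 or limma-voom, and 0 at an unadjusted p below 0.05, and summed to 334 to 475 CPM in GF+PBS and 294 to 543 CPM in GF+MEV. Of 3 tested cholangiocyte markers *Krt19* was called higher (2 higher and 1 lower at an unadjusted p below 0.05 in edgeR). *Sox9* was the lower one, with a log2 difference of -0.98 (edgeR adjusted p 0.103). The sum of the cholangiocyte markers was 23.2 to 29.7 CPM in GF+PBS and 28.1 to 79.3 CPM in GF+MEV. Skeletal muscle markers, with no called gene of 5 (2 lower at an unadjusted p below 0.05 in edgeR), summed to 209 to 765 CPM and to 248 to 342 CPM. Of 8 hepatocyte markers only *Hnf4a* (log2 fold change 0.45) was called. The part of these cell types in the Klf values was not tested.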

How the data were processed

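Total RNA from whole liver of 10 germ-free mice was sequenced after library preparation with the NEBNext Ultra kit. The authors deposited raw read counts per gene, made by alignment to GRCm38 with STAR 2.7.3a and counting with HTSeq, with genes under 20 counts in all removed. The strand setting of the counting was not given in the sources used here. The submitters' processing notes also name bcl2fastq 2.17. Of the table's columns, 5 match no described sample and were not used. Ensembl identifiers were matched to GENCODE symbols on GRCm38, and 10 had none.

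Counts were normalized by TMM and tested in R 4.3.3 with edgeR 4.0.16 (quasi-likelihood test on treatment alone, at least 20 counts over the 10 libraries), with Benjamini-Hochberg adjustment over 12147 genes and a threshold of 0.05. TMM-normalized CPM are given as mean ± SD. Standard errors and ratios used log2 CPM (prior count 2). Single values were compared by exact permutation of the group labels, two-sided. Intervals came from limma 3.58.1, and DESeq2 1.42.0 was an alternative. Other scalings, filters, a replicate block, summed alike libraries and leaving out each liver were also tried. On simulated counts with 200 genes changed by 1 on the log2 scale among 12147, edgeR recovered 183 with 7 false calls. All 10 members were reported. From the other lists, at most 4 called genes by size of log2 fold change were named, and all tested Klf and Sp genes. *Foxo1* was named besides, because the paper had reported it. Likeness was the top 3 genes by within-group r, 1 of which is not reported here. The members and lists were chosen with earlier results of these data known. Promoter windows came from RefSeq on GRCm38.p6. The p-values measure the spread between mice of a single experiment.

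Replicate numbers are shared between the groups in the labels, which do not say that a number marks a common litter, cage or day, and the correlation of same-numbered livers ran from -0.20 to 0.19, so livers were not paired.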

Additional observations from a re-analysis of the deposited data

Results flagged for a closer look

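Among 38 groups of 5 values tested for a liver standing apart (chance would give about 1.9), 3 were found. *Klf2* in GF+PBS liver 2 was at 14.46 CPM, where the other GF+PBS livers lay between 12.67 and 13.09 CPM. *Klf3* in GF+PBS liver 5 was at 40.05 CPM, where the others lay between 32.61 and 33.76 CPM. In both cases the liver that stood apart was the GF+PBS liver closest to GF+MEV. The TMM normalization factor of GF+MEV liver 2 was 0.8902, where the other GF+MEV livers lay between 0.9775 and 1.009. All 3 livers were left out in turn, and the 7 called Klf genes remained called each time. The causes were not tested.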

How the results depend on the processing

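Over 19 alternatives for each of the 10 Klf genes, 186 of 190 values kept their direction and their side of the threshold. The 7 called genes stayed called in all 19, with log2 fold changes of 0.67 to 0.78 for *Klf2*, 1.2 to 1.33 for *Klf3*, 0.93 to 1.21 for *Klf4*, 0.49 to 0.60 for *Klf9*, 0.52 to 0.72 for *Klf11*, 0.62 to 0.82 for *Klf13* and 0.91 to 1.03 for *Klf15*. The highest adjusted p were 0.038 for *Klf11* and 0.024 for *Klf13* (edgeR), both with the alike GF+PBS livers summed. The 4 values that reversed were all of *Klf10*, not called in any alternative, at -0.0081 with library size alone and below 0 without GF+MEV liver 3, GF+PBS liver 1 or GF+PBS liver 3. Over all left-out livers *Klf10* ran from -0.071 to 0.18. *Sp3*, never called, reversed at -0.040 (upper quartile), -0.072 (library size alone), -8.3e-05 (at least 10 counts in every library), -0.0015 (limma-voom), and -0.00096 (replicate block). With a liver left out *Sp3* ran from -0.069 to 0.047, below 0 without GF+MEV liver 4 or 5 or GF+PBS liver 1, 3 or 4.

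The count of called genes, 928, was 561 with the alike GF+PBS livers summed, a fit with fewer libraries, and 696 to 926 when a liver was left out. DESeq2 called 1203. Genes higher in GF+MEV were 53.9% of the called ones with TMM, 41.2% with upper-quartile scaling and 32.5% with library size alone, where the median log2 fold change of all genes was -0.0037, -0.046 and -0.078. With the replicate number as a block edgeR called 792 genes, 725 of them shared in direction with the fit without it, and all 7 Klf genes. Only 1 of 5 GF+MEV livers correlated best with the GF+PBS liver of its own number. Amino acid genes called lower numbered 1 with upper-quartile scaling or library size alone. *Klf4*, at 31 to 135 counts per library, is the member whose value depth limits most.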
